A study of Rattus norvegicus with 6 samples.

Results

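Tenascins, thrombospondins, the SPARC pair, periostin, osteopontin and fibronectin were followed in fibroblast-like cells grown from arthritic rat joints and cultured in 3 sera. The set held 10 genes named by symbol (Tnn, Tnc, Tnr, Thbs1, Thbs2, Sparc, Sparcl1, Postn, Spp1 and Fn1), out of 16499 symbols in the table. A row was found for 8 of them, each with 1 transcript row that overlaps no other row, and Tnc and Thbs1 were not analysed here. The filter on low values kept 7 of the 8 among 9820 tested features. Tnr did not reach it, and Sparcl1 reached it only through the MS- libraries. The genes were chosen by symbol in a set drawn up with their CPM in these 6 libraries already known, so the members' own differences are given as descriptions, without p-values.

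The cells were the adherent fraction of digested synovium from female Wistar rats with collagen-induced arthritis, taken at disease onset before any therapy. Cells were split over 3 media with 2 libraries each, and the codes RA1 and RA2 that recur in the label descriptions of every medium were taken as 2 rats, 1 library per rat and medium. The medium held fetal bovine serum (FBS, the control in the labels), serum of untreated rats (MS-), or serum drawn on day 18 from rats under needle stimulation (MS+, acupuncture in the labels). All 6 libraries therefore share the arthritic origin of the cells, and no cells of healthy rats were part of the comparison. One label field of MS- speaks of healthy rats while its disease field gives arthritis. The study's text describes untreated rats with induced arthritis, and places the MS- draw before any therapy, against day 18 for MS+. Treatment and time of draw thus differ together between MS+ and MS- and cannot be told apart. FBS differs from both rat sera in species and in its fetal origin together, and these cannot be told apart either. The number of rats that gave each serum was not stated, so n counts the rats that gave the cells. Values are CPM, read counts set to a common library size, scaled by the authors, from 5463316 to 5991889 reads per library, and 3 reads corresponded to 0.491 to 0.551 CPM.

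The labelled cell type was checked against marker genes. Col1a1, Col1a2, Col3a1, Pdgfrb, Thy1 and Vim were high in every library (lowest value 1089 CPM, for Thy1), Pdgfra measured 124 to 228 CPM and Fap 2.78 to 9.19 CPM, whereas Dcn and Lum, which fibroblasts of many tissues carry, stayed at or below 0.918 CPM. The macrophage markers Ptprc, Itgam, Cd163 and Emr1 had no read, and the summed macrophage list was 13.8 to 20.5 CPM, most of it Cd14. The endothelial list summed to 0.181 to 1.47 CPM.

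Matricellular proteins are secreted into the extracellular matrix but, unlike collagens, they mainly tune how cells attach to it and respond to growth factors rather than build it. Tenascins, thrombospondins and osteopontin bind integrins and other receptors at the cell surface, SPARC and periostin bind collagen, and fibronectin is a fibrillar scaffold on which several of the others assemble. Several of them are low in resting adult connective tissue and appear during development, wound repair and inflammation of the joint.

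Tnn was the member that differed most between sera. Tnn encodes tenascin-W (tenascin-N), a large oligomeric glycoprotein found around bone, periosteum and some stem cell niches. Its transcript NM_001107189 lies at chromosome 13, 75502879 to 75570266 in rn4, minus strand. In FBS it measured 45.3 CPM in the cells of rat 1 and 70.6 CPM in those of rat 2. In MS- it measured 466 and 519 CPM, and in MS+ 642 and 590.1 CPM. All 4 libraries in rat serum were above both FBS libraries, and both MS+ libraries were above both MS- libraries. The means were 58.0 ± 17.9 CPM in FBS, 493 ± 37.4 CPM in MS- and 616 ± 36.4 CPM in MS+ (SD, n = 2 each), and 277 to 3561 reads stood behind each value. The level in MS+ was thus 10.6 times that in FBS, and the level in MS- 8.49 times. In these bulk libraries a change in the share of cells carrying a transcript and a change in its amount per cell cannot be told apart.

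On the log2(CPM + 1) scale, Tnn differed from FBS by 3.42 in MS+ and by 3.10 in MS- (limma SE 0.20 each). The difference was 3.79 in the cells of rat 1 and 3.04 in those of rat 2 for MS+, and 3.33 and 2.86 for MS-. Both comparisons use the same FBS libraries. Between the rat sera the difference was 0.32 (SE 0.20), at 0.46 in rat 1 and 0.18 in rat 2. The order was thus MS+, MS- and FBS, with the distance of MS+ and MS- from FBS many times the spread between rats and MS+ and MS- closer to each other. The SE of each difference was 0.12 with the rat in the fit, and Tnn was not called between MS+ and MS- in either fit. Here and below, a limma SE also draws on the spread of other features and is not that of 1 gene alone.

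The promoter of Tnn is shown because Tnn is the member with the widest range over sera, and that of Sparc for contrast, as a member that was high in all of them and shares a motif with it. Both are the 250 bases before the annotated start in RefSeq assembly GRCr8, a newer build than the rn4 used for the counts, read 5′ to 3′ along the gene. Capitals mark GGAATG, the core letters that TEAD factors bind, on either strand.
Tnn promoter (chr13:74919790-74920039, minus strand): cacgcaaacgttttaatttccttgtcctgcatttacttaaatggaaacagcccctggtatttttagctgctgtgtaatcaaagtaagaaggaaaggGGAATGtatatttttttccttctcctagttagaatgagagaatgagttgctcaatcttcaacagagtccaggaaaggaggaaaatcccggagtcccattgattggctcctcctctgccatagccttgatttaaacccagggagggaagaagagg
Sparc promoter (chr10:40038817-40039066, minus strand): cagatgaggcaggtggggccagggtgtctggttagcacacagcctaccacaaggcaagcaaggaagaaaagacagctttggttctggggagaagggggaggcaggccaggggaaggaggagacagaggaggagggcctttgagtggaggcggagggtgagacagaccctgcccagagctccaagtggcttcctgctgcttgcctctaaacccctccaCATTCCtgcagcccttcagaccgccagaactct
The match in Tnn begins 154 bases before the start as written, and the match in Sparc 33 bases before it on the opposite strand, as CATTCC. A promoter entry was found for 8 of the 10 genes. GGAATG stood in 3 of them (Sparc, Thbs1 and Tnn), against 12.1% of 33469 promoters of this length. TATAAA stood in 3 (Postn, Spp1 and Tnc, background 12.9%) and GGGCGG in 2 (Thbs1 and Tnc, background 30.5%), both strands searched. Neither TGANTCA (background 6.34%) nor the CArG box (background 1.5%) stood in any of the 8. These motif matches are descriptions of letters and say nothing of binding in these cells.

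Tnr, which encodes the tenascin of the nervous system, lies 156 kb from Tnn on the same chromosome (NM_013045, 75271116 to 75347181, plus strand). It had 1 read in each FBS library, 2 reads in each MS- library, and 6 and 1 reads in MS+. Only the MS+ library of rat 1 was above the floor of 3 reads, at 1.08 CPM, so no difference could be read at this depth. Among glial markers, Mog measured 14.7 to 18.7 CPM, Gfap had at most 1 read, and Mbp, Olig1, Olig2 and Sox10 had none.

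**Figure D1:**
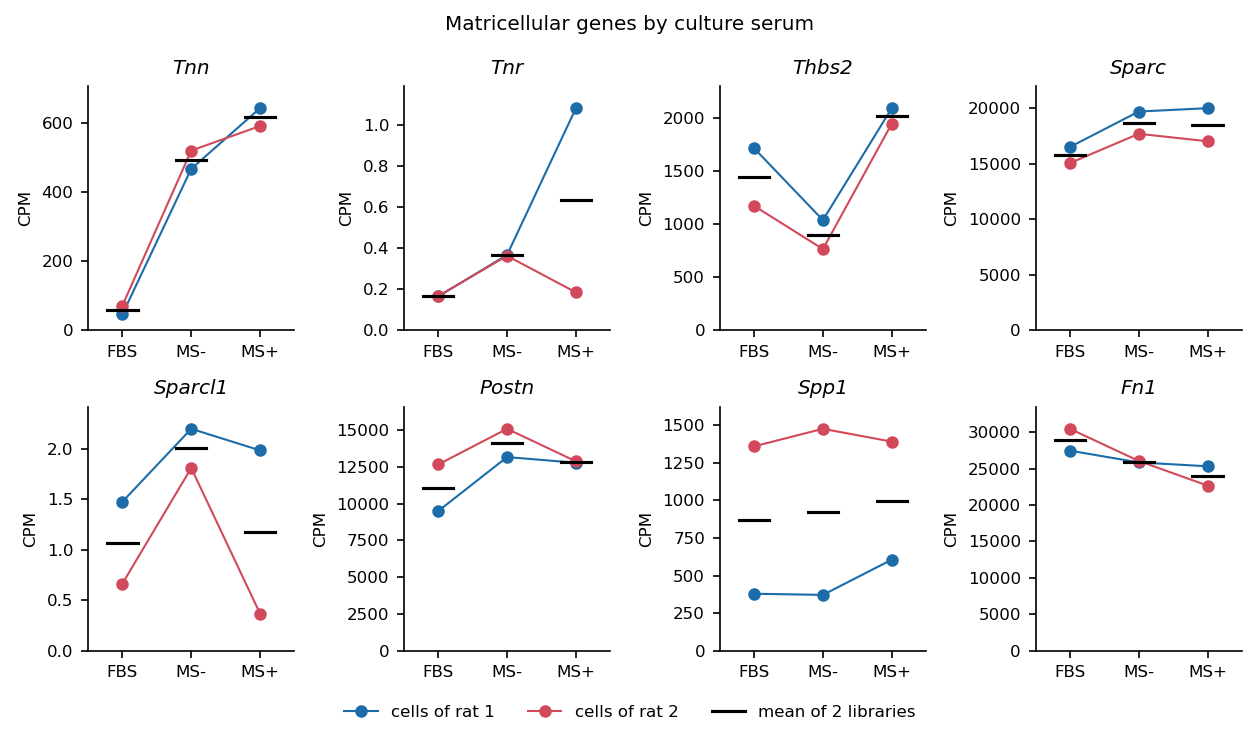
Each panel plots the level of 1 gene in CPM (vertical axis, from 0) in FBS, MS- and MS+, with a point for the cells of each rat, a line joining the libraries of a rat and a bar at the mean of 2 libraries. Tnn lies at 45.3 and 70.6 CPM in FBS and at 466 or more in rat serum, Thbs2 is lowest in MS- and highest in MS+, and the cells of rat 2 lie above those of rat 1 for Spp1 in every medium.

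Thbs2 was the member with the widest gap between the 2 rat sera. It encodes thrombospondin 2, a trimeric inhibitor of blood vessel growth that also shapes collagen fibrils and helps clear matrix proteases. Its transcript NM_001169138 lies at chromosome 1, 53584406 to 53613652, minus strand. In FBS it measured 1716 CPM in rat 1 and 1172 CPM in rat 2, in MS- 1037 and 764 CPM, and in MS+ 2094 and 1947 CPM. The 3 groups did not overlap, with MS- lowest and MS+ highest, and rat 1 was above rat 2 in each. The means were 1444 ± 385 CPM in FBS, 901 ± 193 CPM in MS- and 2020.2 ± 104 CPM in MS+ (SD, n = 2), so that MS+ was at 2.24 times MS-, and MS- at 0.624 times FBS.

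The log2 difference of Thbs2 between MS+ and MS- was 1.18 (SE 0.22), at 1.01 in rat 1 and 1.35 in rat 2. Against FBS it was 0.51 for MS+ and -0.67 for MS- (SE 0.22 each). The rats moved the same way in each of these, by 0.29 and 0.73 for MS+ and by -0.73 and -0.62 for MS-. Leaving out 1 library moved the difference between MS- and FBS from -0.40 (without FBS replicate 1) to -0.95 (without FBS replicate 2). The SE fell to 0.10 once the rat was a term of the fit. The summed chondrocyte markers were likewise lowest in MS-, at 1453 to 1828 CPM in MS-, 2586 to 3014 CPM in FBS and 2541 to 2672 CPM in MS+, almost all of it Acan, while Matn1 had no read and Col2a1 stayed at or below 0.663 CPM. Their part in the Thbs2 difference was not tested.

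Sparc and Sparcl1 encode SPARC, a collagen-binding protein that governs fibril assembly, and its relative hevin, which carries a long acidic extension. Sparc (NM_012656, chromosome 10, 40809730 to 40831481, minus strand) measured 16491 and 15042 CPM in FBS, 19685 and 17681 CPM in MS-, and 19987 and 17005 CPM in MS+. Both rat sera were above FBS without overlap, by 0.24 for MS- and 0.23 for MS+ on the log2 scale. The SE was 0.22, about the size of each difference, and 0.13 with the rat in the fit. MS+ and MS- overlapped, with a difference of -0.02. Sparcl1 (NM_012946, chromosome 14, 6766347 to 6797581, plus strand) was near the floor, at 9 and 4 reads in FBS, 12 and 10 in MS- and 11 and 2 in MS+. In CPM this was 1.47 and 0.663, 2.20 and 1.81, and 1.98 and 0.367. Its differences ranged from -0.57 to 0.56 with an SE of 0.42. Only MS- stood clear of FBS, and since Sparcl1 passed the filter only through MS-, this is not read as a result.

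Postn encodes periostin, a fasciclin-domain protein of periosteum, tendon and healing tissue that links collagen to tenascin. Postn (NM_001108550, chromosome 2, 143537099 to 143568341, plus strand) measured 9494 and 12659 CPM in FBS, 13162 and 15084 CPM in MS-, and 12777 and 12872 CPM in MS+. The groups did not overlap, with FBS lowest and MS- highest. The log2 differences were 0.36 for MS- and 0.23 for MS+ against FBS, and -0.14 between MS+ and MS- (SE 0.22), so neighbours in this order lay within 2 standard errors. With the rat in the fit the SE was 0.13. The difference between MS- and FBS ranged from 0.15 to 0.57 when 1 FBS library was left out.

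Fn1 encodes fibronectin, the scaffold that tenascins and thrombospondins bind in the matrix. Fn1 (NM_019143, chromosome 9, 70702181 to 70771155, minus strand) was the member with the most reads, which is not a comparison per length. It measured 27464 and 30465 CPM in FBS, 25852 and 26053 CPM in MS-, and 25318 and 22665 CPM in MS+. The groups did not overlap and ran opposite to Tnn, with FBS highest and MS+ lowest. The differences were small, at -0.27 for MS+ and -0.16 for MS- against FBS and -0.12 between MS+ and MS- (SE 0.24). That SE became 0.14 with the rat in the fit.

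Spp1 was the member whose libraries separated by rat. Spp1 encodes osteopontin, an acidic phosphoprotein of bone and of activated macrophages and fibroblasts that binds integrins and CD44. Spp1 (NM_012881, chromosome 14, 6422742 to 6426400, minus strand) measured 379 CPM in rat 1 and 1359.6 CPM in rat 2 in FBS, 371 and 1476 CPM in MS-, and 605 and 1391 CPM in MS+. All 3 libraries of rat 2 were above all 3 of rat 1, by 3.59-fold in FBS, 3.98-fold in MS- and 2.30-fold in MS+. Among the 7 tested members this held for Spp1 alone, where 13.5% of all tested features had rats that did not overlap and 0.916% differed at least 2-fold the same way in all 3 media. With 2 rats the difference between them has no replicate and was not tested.

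Between sera the groups of Spp1 overlapped in every comparison. The log2 differences were 0.31 (MS+ minus MS-), 0.35 (MS+ minus FBS) and 0.04 (MS- minus FBS), each with an SE of 0.80. With the rat in the fit limma gave an SE of 0.13. That SE is drawn toward the spread of other features and understates how far the 2 rats differed for Spp1. In rat 1, Spp1 was higher in MS+ than in MS- by 0.70, while in rat 2 the difference was -0.09. Leaving out 1 library took the difference between MS+ and MS- from -0.69 (without MS- replicate 1) to 1.30 (without MS- replicate 2). Spp1 was called in 1 of 18 settings against FBS for MS+ (edgeR, rat as a block) and in none for MS-. Macrophages also make osteopontin. Of 7 macrophage markers with a row, Ptprc, Itgam, Cd163 and Emr1 had no read, Cd14 had 73 to 106 reads, Cd68 3 to 11 (the highest in MS+ of rat 2) and Csf1r 2 to 4. Their part in the Spp1 values was not tested.

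Spp1 belongs to a cluster of genes for acidic bone and tooth proteins, which was read next to it. Ibsp, which encodes bone sialoprotein, lies 122 kb from Spp1 and was also higher in rat 2, with 8 against 1 reads in FBS, 70 against 3 in MS- and 49 against 3 in MS+. It did not pass the filter on low values and was not tested. Mepe had 0 to 4 reads, Dmp1 0 to 2 reads and Dspp none. On the other side, Pkd2, a calcium channel gene 29.8 kb away, measured 229 and 256 CPM in FBS, 445 and 482 CPM in MS- and 374 and 459 CPM in MS+, with both rat sera above FBS. Sparcl1, 340 kb from Spp1, had more reads in rat 1 in each medium. The genes next to Spp1 differed from each other in which rat or serum was high.

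**Figure D2:**
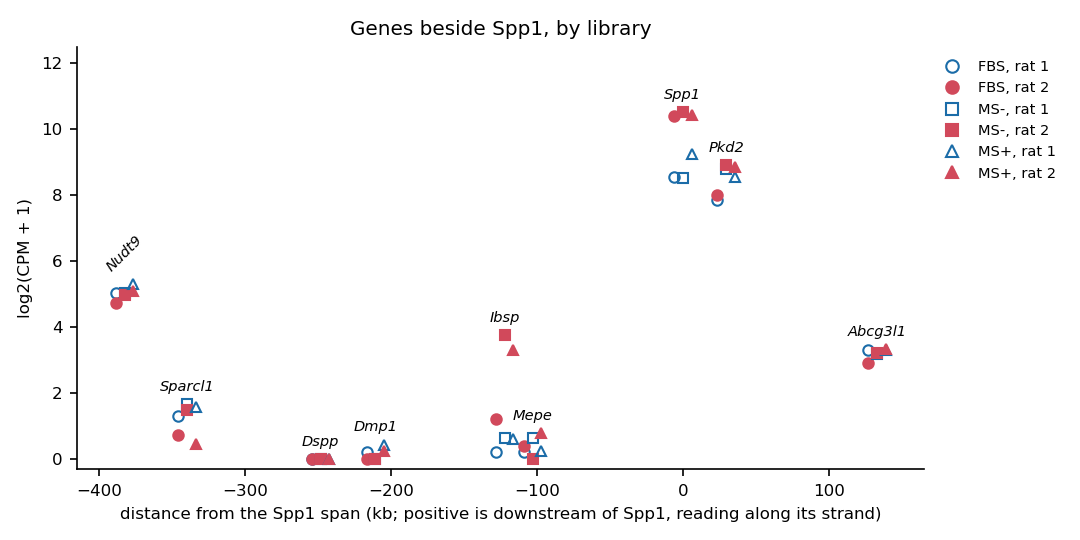
The level of each gene within 400 kb of Spp1, except those whose symbol starts with LOC, is plotted in log2(CPM + 1). The horizontal axis is the distance from the Spp1 transcript in kb. Open blue symbols mark rat 1, filled red symbols rat 2, and each serum has its own shape. Filled symbols lie above open ones for Spp1 and Ibsp in all 3 media, while Pkd2 separates FBS from the rat sera.

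The members' calls were counted against all tested features at a Benjamini-Hochberg adjusted p under 0.05 in limma, without reading a result from counts the choice of genes had shaped. Between MS+ and MS- none of the 7 members passed, beside 0.0204% of all features, and 1 member (Thbs2) was at an unadjusted p under 0.05, beside 14.7%. There edgeR passed 0 members (background 0.0305%), limma-voom 0 (background 0.0407%) and DESeq2 1 (Thbs2, background 1.25%). For MS+ against FBS 1 member passed (Tnn, higher), beside 9.61% of features in either direction and 4.95% that were higher. For MS- against FBS the 1 member was again Tnn, beside 4.81% in either direction and 2.09% that were higher. With the rat as a block 1 member passed between the rat sera (Thbs2, background 10.1%), 2 for MS+ against FBS (Tnn and Thbs2, background 28.2%) and 2 for MS- against FBS (Tnn higher and Thbs2 lower, background 20.5%). Groups that did not overlap were common, at 4 of 7 members where the rat sera were compared (45.8% of features). The counts were 5 for MS+ against FBS (56.7%) and 6 for MS- against FBS (51.6%). Those 6 include Sparcl1, which passed the filter only through its MS- libraries.

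**Figure D3:**
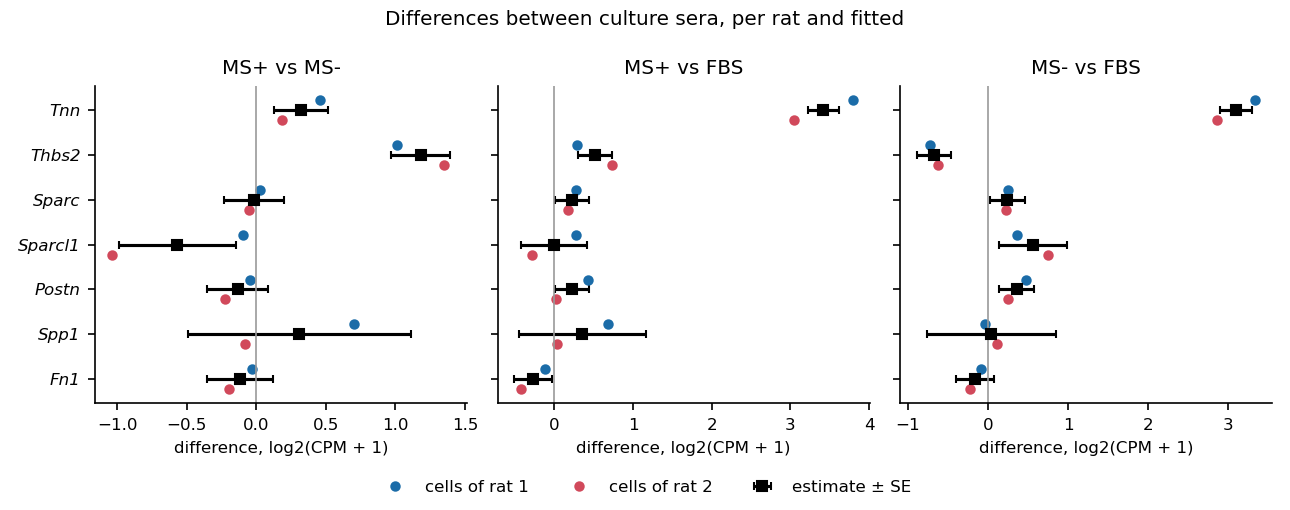
For each tested member (vertical axis) the difference in log2(CPM + 1) between 2 sera is plotted along the horizontal axis, with blue and red points for the cells of rat 1 and rat 2 and a square with its limma standard error for the estimate. Tnn lies at 2.86 or more in both rats in both comparisons with FBS, Thbs2 at 1.01 and 1.35 between MS+ and MS-, and Spp1 has the widest bars.

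The members did not share 1 pattern over the 6 libraries. Pearson's r on log2(CPM + 1) between Tnn and the others ran from -0.76 (Fn1) to 0.74 (Postn and Sparc), with -0.03 for Thbs2. The features closest to Tnn were Lama5, a laminin chain of basement membranes (r = 0.998), Tob1, an inhibitor of proliferation (0.998), Chmp4c, of membrane scission (0.997), Slc23a2, a vitamin C transporter (0.997), and Phlda3, an inhibitor of Akt (0.996). Lama5 measured 187 and 214 CPM in FBS, 370.4 and 383 CPM in MS-, and 410.2 and 423 CPM in MS+, a narrower range than that of Tnn. The closest feature was Ptov1 for Thbs2 (0.993), Mreg for Sparc (0.989), Ntm for Sparcl1 (0.994), Nf1 for Postn (0.997), Efs for Spp1 (0.994) and Lpcat1 for Fn1 (0.985). These r describe 6 libraries that fall into 3 sera and 2 rats, and were picked as the highest of 9820.

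The receptors were read from a list of 12 integrin genes, of which 7 were tested. This list and those that follow were also drawn up with earlier results of these data known. Their adjusted p-values are therefore descriptions and no independent support for the members. Itga8, whose product pairs with integrin beta 1 and is a known receptor for tenascin-W as well as osteopontin and fibronectin, was the 1 that passed. Itga8 (NM_001173972, chromosome 17, 86427197 to 86649274, minus strand) measured 128 and 172 CPM in FBS, 332 and 374 CPM in MS-, and 498 and 489 CPM in MS+. The 3 sera did not overlap and stood in the same order as for Tnn. Itga8 rose by 1.73 in MS+ over FBS (SE 0.15, limma adjusted p 0.00342) and by 1.24 in MS- over FBS (SE 0.15, limma adjusted p 0.00749). Between MS+ and MS- the difference was 0.48 (limma adjusted p 0.226, and 0.00482 with the rat as a block, in a range of 0.00313 to 0.560 over 17 alternatives). The adjusted p against FBS was 0.0509 for MS+ without MS+ replicate 1 and 0.0593 for MS- without MS- replicate 2, and these were the highest over the alternatives. Without the block, counts here and in the lists that follow stand beside 9.61% of all features for MS+ against FBS. The share was 4.81% for MS- against FBS and 0.0204% for the rat sera, where 14.7% were at an unadjusted p under 0.05. With the block the shares were 28.2% for MS+ against FBS, 20.5% for MS- against FBS and 10.1% for the rat sera. With the block, Itga8 passed between the rat sera, and 2 and 3 integrins passed for MS+ and MS- against FBS (Itga8 with Itgb5, and both with Itga7). Itgb1, its partner chain, had the highest CPM of the list, at 3691 to 5472 CPM, and did not pass in any comparison. The median log2 difference of the 7 was 0.01 for the rat sera (MS+ minus MS-), 0.09 for MS+ minus FBS and 0.24 for MS- minus FBS, where the medians of all features were -0.01, 0.00 and 0.01.

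Of 14 other receptors and partners 10 were tested. Without the block 2 passed for MS+ against FBS (Sdc3 and Sdc4), beside 9.61% of all features. For MS- against FBS 1 passed (Sdc1), beside 4.81%. All 3 are syndecans, cell surface proteoglycans that bind fibronectin, tenascins and thrombospondins. Sdc4, the syndecan of focal adhesions, measured 140.3 and 204 CPM in FBS, 258.5 and 326 CPM in MS-, and 517 and 525 CPM in MS+, and rose by 1.62 in MS+ over FBS (SE 0.19, limma adjusted p 0.00694). Sdc3 measured 317 and 455 CPM in FBS, 277 and 308 CPM in MS-, and 204 and 241 CPM in MS+, and fell by 0.77 in MS+ against FBS (SE 0.18, limma adjusted p 0.0435). Sdc1 measured 127 and 134 CPM in FBS, 53.4 and 66.7 CPM in MS-, and 65.9 and 95.6 CPM in MS+, and fell by 1.12 in MS- against FBS (SE 0.19, limma adjusted p 0.0257). So 1 syndecan was higher and 2 were lower in a rat serum. Each was without overlap with FBS, beside 56.7% of all features for MS+ and 51.6% for MS-. The call of Sdc4 was lost without either MS+ library (adjusted p 0.0576 and 0.0506, the former the highest over 17 alternatives), that of Sdc3 in 5 of the 6 fits that left out a library (0.0734 to 0.206) and that of Sdc1 without any FBS or MS- library (0.0735 to 0.150). Lrp1, an endocytic receptor of thrombospondins with the highest CPM of the list (1804 to 2229.6 CPM), did not pass. Between MS+ and MS- none of the 10 passed in limma without the block, in edgeR or in limma-voom. In that limma fit 1 was at an unadjusted p under 0.05, and DESeq2 passed 1 (Sdc4, background 1.25%). With the block 3 of the 10 passed there (Sdc1 and Sdc4 higher, Sdc3 lower in MS+), beside 10.1% of all features. Against FBS the block passed 5 for either rat serum. Cntn1 and Ptprz1, neural tenascin receptors, had no read. The list's medians were -0.03, 0.08 and 0.09 in the 3 comparisons, in the order used for the integrins.

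Proteases known to cleave these proteins or their matrix held 14 genes, of which 11 were tested. Adamts1, a secreted metalloprotease of proteoglycans and thrombospondins, measured 313 and 384 CPM in FBS, 685 and 754 CPM in MS-, and 1318 and 1322 CPM in MS+. It rose in both rat sera over FBS, by 1.93 in MS+ (SE 0.12, limma adjusted p 0.00148) and by 1.05 in MS- (SE 0.12, limma adjusted p 0.00752, and 0.0653 without MS- replicate 2, the highest over 17 alternatives). Adamts4, an aggrecan-cleaving relative, was low, at 5.64 to 7.53 CPM in FBS and 11.9 to 14.9 CPM in MS+, and rose by 0.93 there (SE 0.21, limma adjusted p 0.0435). That call was lost when any 1 library was left out (0.0716 to 0.176) and in DESeq2 (0.0869). Plat, tissue plasminogen activator, measured 90.9 and 92.2 CPM in FBS, 68.2 and 61.3 CPM in MS-, and 108 and 116 CPM in MS+, and fell by 0.49 in MS- against FBS (SE 0.10, limma adjusted p 0.0444), a call also lost without any 1 library (0.0840 to 0.233). Plat was thus, like Thbs2, lowest in MS- and highest in MS+. Htra1 had the highest CPM of the list, at 1572 to 2122 CPM, and did not pass in the fit without the block (limma adjusted p 0.134 for MS+ and 0.0879 for MS- against FBS), but was lower than FBS in both with the block (0.0187 and 0.00292) and in DESeq2. Between MS+ and MS- none of the 11 passed and 3 were at an unadjusted p under 0.05, while DESeq2 passed 2 (Adamts1 and Plat), edgeR and limma-voom 0, and the block 3 (Adamts1, Adamts5 and Plat). Against FBS the block passed 7 of the 11 for MS+, beside 28.2% of all features, and 5 for MS-, beside 20.5%. The medians were 0.27, 0.29 and -0.12.

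**Figure D4:**
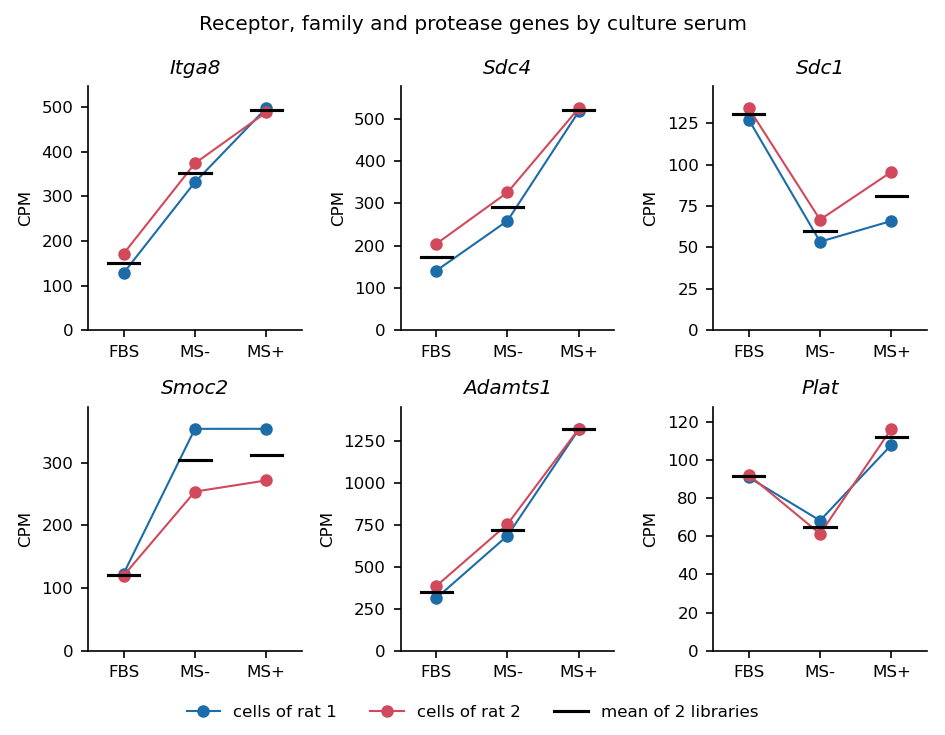
The level in CPM (vertical axis, from 0) is plotted by serum for 6 receptor, family and protease genes, with a point for the cells of each rat and a bar at the mean of 2 libraries. Itga8, Sdc4 and Adamts1 step up from FBS to MS- to MS+, Sdc1 is highest in FBS, Smoc2 is higher in both rat sera, and Plat is lowest in MS-.

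Other matricellular genes numbered 18, of which 13 had a row and 7 were tested. Smoc2, a SPARC relative that lies 289 kb from Thbs2, measured 123 and 119.9 CPM in FBS, 354 and 254 CPM in MS-, and 354 and 272 CPM in MS+. It rose by 1.35 in MS+ (SE 0.18, limma adjusted p 0.00983) and by 1.30 in MS- (SE 0.18, limma adjusted p 0.0140) over FBS, with rat 1 above rat 2 in both rat sera. Either call was lost without any 1 FBS library or without replicate 1 of the rat serum concerned (adjusted p 0.0532 to 0.0904). Between MS+ and MS- none of the 7 passed, in limma with or without the block, in edgeR, in limma-voom or in DESeq2. At an unadjusted p under 0.05 there were 0 in limma without the block and 3 with it. With the block 3 passed for MS+ against FBS (Smoc2 higher, Lgals1 and Lgals3 lower) and 5 for MS-. Smoc2 did not follow its neighbour Thbs2, for which MS- was below FBS. Fstl1, a distant SPARC relative, had the highest CPM of the list (2385 to 3444 CPM) and did not pass. The medians were 0.05, -0.22 and -0.32, opposite in sign to Smoc2 against FBS.

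Matrix partners, the collagens, fibulins and proteoglycans these proteins bind, held 15 genes, of which 11 were tested. Acan, which encodes the proteoglycan aggrecan, measured 2585 and 3012 CPM in FBS, 1453 and 1827 CPM in MS-, and 2671 and 2538 CPM in MS+. It fell by 0.78 in MS- against FBS (SE 0.15, limma adjusted p 0.0409), lost when any 1 library was left out (0.0845 to 0.220). Col1a1, the collagen with the highest CPM, measured 40458 and 34296 CPM in FBS and 23563 to 28736 CPM in rat serum. It was not called against FBS in limma without the block, but was lower for MS- in edgeR, limma-voom and DESeq2 and for MS+ in DESeq2. The medians were 0.09, -0.19 and -0.28. Between MS+ and MS-, 2 of the 11 were at an unadjusted p under 0.05 and none passed the adjusted threshold, with 1 (Acan) in DESeq2, 1 with the block and 0 in edgeR and limma-voom. Against FBS the block passed 4 for MS+ and 6 for MS-, Col1a1 lower among them in both.

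Bone markers were read beside Tnn, since tenascin-W is known from bone. The summed osteoblast list was 166 to 251 CPM in FBS, 332 to 399 CPM in MS- and 390 to 439 CPM in MS+, so it too was lowest in FBS. That order came from Alpl, alkaline phosphatase, which measured 120.2 to 210.0 CPM in FBS, 278 to 355 CPM in MS- and 344 to 409 CPM in MS+ and rose by 1.23 in MS+ over FBS (SE 0.26, limma adjusted p 0.0326). Runx2 went the other way in MS+, at 40.1 to 44.1 CPM in FBS and 28.5 to 36.0 CPM in MS+, a difference of -0.38 (limma adjusted p 0.142, and 0.0359 with the block). For MS- against FBS neither of the 2 tested osteoblast genes was called in limma without the block, and Alpl was called with it. The median log2 difference of the 2 was 0.50 for MS- minus FBS. Of the defining markers, Sp7 had no read and Bglap at most 2 reads in any library, while Ibsp had the reads given above. Their part in the Tnn difference was not tested.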

How the data were processed

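Poly(A) RNA of 6 cultures was sequenced from libraries without strand marks. Per the labels and the study's methods, the authors aligned reads to rn4 with Bowtie2 2.1.0, counted them per transcript with HTSeq 0.5.4p3 (intersection-nonempty), and deposited a normalized signal, CPM over library sizes scaled by TMM in edgeR. Of 17221 rows, 4567 were at 0 in every library. Whole reads were recovered from 100% of values (tolerance 1e-06 reads). No column was left unmapped to a sample.

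The most abundant row stood for each symbol. Features with 1 CPM in both replicates of at least 1 group were kept (9820) and fitted with limma 3.58.1 in R 4.3.3, with a mean-variance trend and two-sided tests, on log2(CPM + 1), with serum as the only term and all 6 libraries. Fold changes are on the log2(CPM + 1) scale, so those of low genes are understated. The planned design kept limma-voom for raw counts, and as the table held scaled values the log2 fit was used. Called means a Benjamini-Hochberg adjusted p under 0.05 over all features. Values are mean ± SD of 2 libraries, and SE are those of limma. The limma fits draw the spread of each gene toward that of features with similar abundance. Floors of 3 reads cover counting error only. The script was tested on simulated data.

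The label descriptions give the codes RA1 and RA2 in each group, taken here as 2 rats, so replicate numbers were used to pair the libraries. The difference between rats correlated across features by 0.62 (FBS and MS-), 0.49 (FBS and MS+) and 0.59 (MS- and MS+), and the rat was entered as a block in a second fit. Alternatives were edgeR 4.0.16, limma-voom and DESeq2 1.42.0 on recovered reads, another pseudocount (0.1), no filter, other scalings, the sum of rows per symbol, a fit of 2 groups only and each library left out, where the lone library of a group is assumed to vary like the other groups. The edgeR fit with the block was chosen after seeing the data.

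The members and gene lists were chosen with earlier results of these data known. Named were all members, up to 3 called genes per direction, comparison and list with the list's most abundant gene, the 5 features closest to Tnn and the 1 closest to each other member. Marker and neighbouring genes were named to describe cells and locus. One listed marker gene is not reported here. Coordinates are rn4, 1-based; promoters are from RefSeq GRCr8.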

Additional observations from a re-analysis of the deposited data

Results flagged for a closer look

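In 4 cases the cells of the 2 rats moved in opposite directions under the same change of serum, and with 1 library per rat and serum the difference between rats was not tested. Spp1 differed between MS+ and MS- by 0.70 in rat 1 and -0.09 in rat 2, and between MS- and FBS by -0.03 and 0.12 (log2). Sparc differed between MS+ and MS- by 0.02 in rat 1 and -0.06 in rat 2. Sparcl1 differed between MS+ and FBS by 0.27 in rat 1 and -0.28 in rat 2, on 2 to 11 reads per library.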

How the results depend on the processing

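Over the 18 settings run the log2 difference of Tnn from FBS was 3.10 to 3.73 for MS+ and 2.78 to 3.41 for MS-. Each of 357 alternative values for the members was set against the SD of the log2 differences of the 2 rats in that comparison. Of these, 319 moved by no more than that SD and 38 by more. Sign changes numbered 13, in 5 differences that were not called without the block in limma: Spp1 in all 3 comparisons (-0.69 to 1.30 for MS+ minus MS-, -0.57 to 1.27 for MS+ minus FBS, -0.95 to 1.04 for MS- minus FBS), Sparc for MS+ minus MS- (-0.13 to 0.10) and Sparcl1 for MS+ minus FBS (-0.57 to 0.56). With the replicate block the count of members called rose from 0 to 1 between MS+ and MS-, from 1 to 2 for MS+ against FBS and from 1 to 2 for MS- against FBS, and edgeR with the replicate block gave 1 (Thbs2), 4 (Fn1, Spp1, Thbs2 and Tnn) and 3 (Postn, Thbs2 and Tnn). DESeq2 gave 1 between MS+ and MS- and 2 for MS- against FBS. Leaving out any 1 library left these counts at 0, 1 and 1.

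Over all features, the main counts of 2 (MS+ against MS-), 944 (MS+ against FBS) and 472 (MS- against FBS) became 987, 2773 and 2011 with the replicate block, 1015, 2858 and 2073 in edgeR with the replicate block, 0, 586 and 255 without the low-value filter, and 0, 609 and 278 with only 2 groups in the fit. Between MS+ and MS- limma-voom gave 4 and DESeq2 123. With 1 library left out the counts were 0 between MS+ and MS- (918 to 1385 at an unadjusted p under 0.05), 25 to 602 for MS+ against FBS, lowest without MS+ replicate 1, and 105 to 280 for MS- against FBS, lowest without FBS replicate 1. The causes were not tested.

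Smoc2 changed sign between MS+ and MS-, from 0.05 to -0.19 without MS- replicate 2 and to -0.14 without MS+ replicate 1, within a range of -0.19 to 0.29. Acan changed sign between MS+ and FBS, from -0.10 to 0.010 without FBS replicate 2, and was -0.21 at the lowest. Neither was called there. Without the low-value filter the calls of Sdc3, Adamts4, Sdc1, Plat and Acan were lost, with only 2 groups in the fit those of Sdc3, Adamts4, Plat and Acan, and with library totals that of Adamts4. With 2 rats and an unstated number of serum donors, p-values without the block measure the spread between 2 cell sources in 1 culture each. Those with the block measure what remains once the average difference between the rats is removed, drawn toward the spread of all features. With 2 rats a block SE is therefore not the spread of that gene alone. Tnr and Sparcl1 were too shallow for a difference to be read.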
